A study of Mus musculus with 16 samples.

Results

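The cytosolic ribosomal protein genes of mouse embryonic stem cells were followed across 4 cell lines and 2 culture media. They were taken as the genes whose symbol begins with Rpl or Rps followed by a number and, in some, the letter a, x or l, together with Rplp0, Rplp1, Rplp2, Rpsa and Rps3a1, and whose normalised count averaged 10 or more. This gave 84 of the 55291 genes in the deposited table, and no gene with such a symbol fell below the bound. Of the 84, 3 (Rpl32l, Rpl6l and Rps4l) are annotated as pseudogenes in GENCODE M21. The rule leaves out 319 symbols marked as ribosomal protein pseudogenes, as well as genes such as Fau and Rack1, which encode ribosomal proteins under other names.

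The cells were E14Tg2a embryonic stem cells of strain 129/Ola, grown without feeders, and total RNA was sequenced after ribosomal RNA depletion. In every group the endogenous CTCF, which binds DNA through zinc fingers and anchors chromatin loops, carried an auxin-inducible degron, and the protocol gives 500 µM indole-3-acetic acid and 1 µg/ml doxycycline for 2 days. Doxycycline switched on a transgene of wild-type CTCF (WT) or of the R342C, K365T or Q418R mutant. One arm was held in serum medium to which LIF (leukemia inhibitory factor) was added, with 3 µM CHIR99021, a GSK3 inhibitor, and 1 µM PD0325901, a MEK inhibitor, and the other spent 3 days without these additions, during which cells leave the naive pluripotent state. Each line and medium had 2 libraries, 16 in all in 8 groups, and no library of cells with only endogenous CTCF was analysed here. Each genotype is 1 line, so that genotype and line cannot be told apart, and the labels do not say whether the 2 libraries of a group came from separate cultures. The p-values therefore measure only the spread between these libraries, which may be technical.

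Ribosomal proteins coat and stabilise the ribosomal RNA of the small subunit (Rps genes), which decodes the mRNA, and of the large subunit (Rpl genes), which joins amino acids. A stalk of Rplp0, Rplp1 and Rplp2 on the large subunit recruits translation factors. Most of these genes are expressed in every cell, and most of their mRNAs begin with a run of pyrimidines through which the mTOR pathway regulates their translation. A few have paralogs with tissue-restricted use: Rpl10l and Rpl39l are known from male germ cells, where they stand in for X-linked Rpl10 and Rpl39, and Rpl3l is known from heart and skeletal muscle.

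The results on medium turn on Rpl39l and the other 2 paralogs, so the coding sequences of the shortest pair are shown in full, with the differing bases in capitals. Both are 156 bases long and differ by 23 substitutions without a gap, an identity of 85.3%.

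Rpl39: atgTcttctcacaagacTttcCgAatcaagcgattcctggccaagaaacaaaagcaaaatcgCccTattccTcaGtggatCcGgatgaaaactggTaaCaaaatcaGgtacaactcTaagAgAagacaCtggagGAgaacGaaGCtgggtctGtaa

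Rpl39l: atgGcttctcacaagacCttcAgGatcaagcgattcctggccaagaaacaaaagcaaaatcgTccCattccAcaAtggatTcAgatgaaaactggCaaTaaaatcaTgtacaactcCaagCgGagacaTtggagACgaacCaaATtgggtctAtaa

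Rpl10 and Rpl10l have 84.8% identity over 645 coding bases, and Rpl3 and Rpl3l have 73.2%. In GENCODE M21 (mm10), Rpl39l lies at chr16:10170226-10174911 on the plus strand with 3 exons, and Rpl39 at chrX:37082520-37085402 on the minus strand. Rpl10l is a single-exon gene at chr12:66283379-66284401 on the minus strand, and Rpl10 has 7 exons at chrX:74270812-74273135 on the plus strand. Rpl3l has 10 exons at chr17:24727820-24736143 on the plus strand, and Rpl3 lies at chr15:80077791-80091868 on the minus strand. No 150-base window of the Rpl10l, Rpl39l or Rpl3l transcript recurs exactly in another gene's transcript, and no other gene overlaps them. Of the Rpl10 windows 90.9% recur in 8 other genes, among them Rpl10 pseudogenes, so that the count of Rpl10 depends on how reads with several matches were treated.

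Starts of transcription were compared in the RefSeq promoter table (GRCm38.p6), which held 62 of the 84 genes. A run of at least 7 C or T bases that starts with C lay within 20 bases of a start, on the strand of the gene, in 35 of these 62 (56.5%) and in 21.4% of all 27025 genes. TATAAA lay in the 60 bases before the start in 0 of the 62 genes and in 3.44% of all genes, and CACGTG, which reads the same on both strands, lay in 9.68% and 8.09% of promoters. The 30-base windows centred on a start set 3 members with a long run, each called in a comparison below, beside the 3 paralogs, with runs of at least 7 in capitals. The window of Rpl35 is chr2:39005117-39005146, minus strand. The window of Rpl7a is chr2:26910792-26910821, plus strand. The window of Rps18 is chr17:33955651-33955680, minus strand. The window of Rpl39l is chr16:10170213-10170242, plus strand. The window of Rpl10l is chr12:66284387-66284416, minus strand. The window of Rpl3l is chr17:24727811-24727840, plus strand.

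Rpl35: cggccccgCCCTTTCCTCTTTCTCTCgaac

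Rpl7a: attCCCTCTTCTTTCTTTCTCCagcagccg

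Rps18: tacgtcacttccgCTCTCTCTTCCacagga

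Rpl39l: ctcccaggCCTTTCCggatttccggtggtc

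Rpl10l: tttggcctccattttgcggctggcggtggg

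Rpl3l: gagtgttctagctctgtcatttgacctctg

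A short run is present at the start of Rpl39l, and no run of 7 lies in the windows of Rpl10l and Rpl3l. Other members lack one too, among them Rpl10 (longest run 3), Rplp0 (4) and Rps4x (4), while 35 of the 62 genes had one near a start. Such matches describe the letters of these windows and show neither a site nor its use.

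Per library, 19721363 to 31935381 reads could be recovered from the normalised counts, 790386 to 1538115 of them from the 84 genes. Of 7 pluripotency markers none was listed at 0 in all libraries, and their summed normalised count was 80451 to 94623 in the 8 LIF libraries and 45554 to 52974 in the 8 without LIF. The second WT library without LIF stood apart: 3.97% of its normalised counts came from CT010467.1, an rRNA gene, against 1.29% to 3.04% in the other libraries. The weight of this library is given below for the counts and medians of the 84 genes and for some single members. For single genes outside the 84 no value without it is given.

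Levels are compared between genes as TPM, the authors' transcript abundances scaled for gene length and library total. Together the 84 genes made up 7.77% to 9.27% of all TPM. The highest were Rplp1 of the stalk with a mean of 4338 TPM over 16 libraries, Rpl23a, a protein near the exit of the peptide tunnel, with 4149, and Rps15 with 3109, and the median gene had 849. The lowest were Rpl3l with 2.43, Rpl32l with 4.53 and Rpl6l with 7.98 TPM. In all, 56 genes had means between 500 and 2000 TPM, and 6 lay under 100. Among these 6, Rpl24 (10.7 TPM) overlaps Gm28037 and Rps10 (18.0 TPM) overlaps RPS10-NUDT3 in the annotation, as Rpl13a (141 TPM) overlaps Gm45713. Gm28037 and Gm45713 were listed at 0 in every library. The levels of these members are uncertain, since the treatment of reads shared by overlapping genes is not given in the sources used here.

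**Figure D1:**
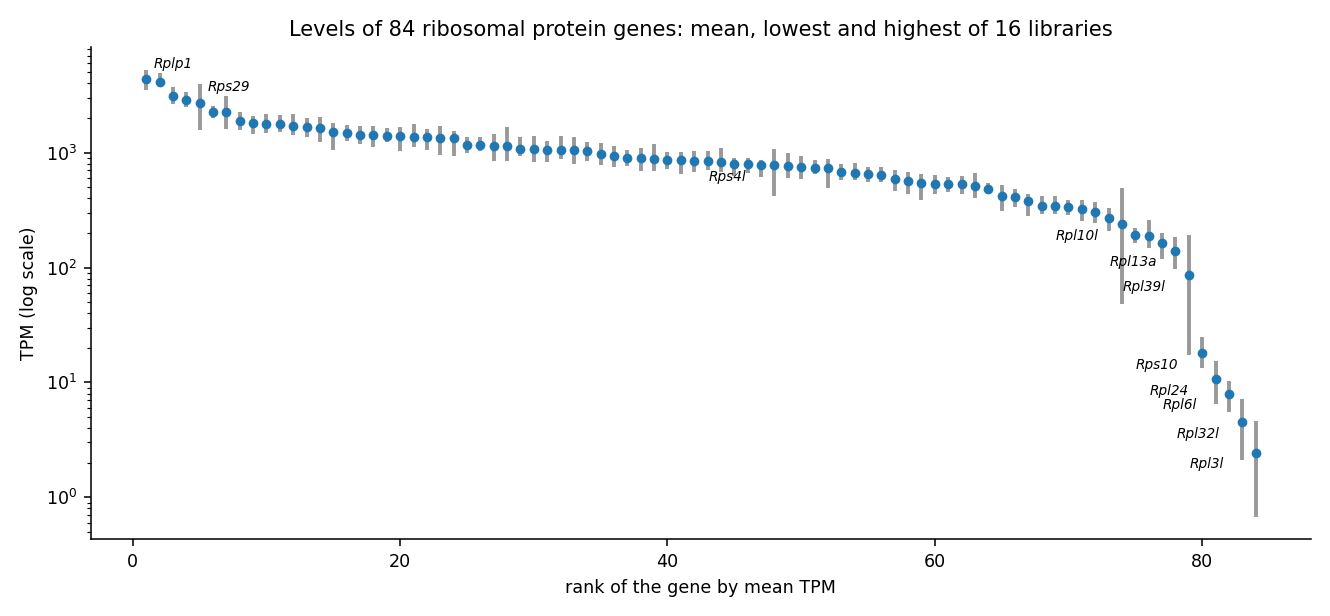
Level of each of the 84 ribosomal protein genes, ranked by mean: points show the mean TPM of 16 libraries on a log axis, and vertical lines run from the lowest to the highest library. Most genes lie between 500 and 2000 TPM with short lines, while Rpl10l, Rpl39l and Rpl3l have the longest lines.

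Levels varied little from library to library. In 77 of the 84 genes the highest library was less than 2 times the lowest, and the median coefficient of variation over the 16 libraries was 11.9%. The widest ratios of highest to lowest library were those of Rpl39l (11.2), Rpl10l (10.3) and Rpl3l (6.82), followed by Rpl32l with 3.38 and Rps4l with 2.55. Rps29, a small zinc-binding protein of the small subunit, came next with 2.51, from 1569 to 3930 TPM.

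The first question was how the genes responded when LIF and both inhibitors were withdrawn. Among the 84 genes of the WT line 12 changed at an adjusted p under 0.05 (limma with Benjamini-Hochberg adjustment over 17757 genes), 8 higher and 4 lower, which is 14.3% of the members where 48.8% of all tested genes were called (23.8% higher and 24.9% lower). R342C had 5 higher and 4 lower, where 47.2% of all genes were called (23.3% higher and 23.9% lower). K365T had 0 higher and 9 lower, where 44.7% were called (21.6% and 23%), and Q418R had 1 higher and 8 lower, where 46.5% were called (23% and 23.5%). In each line the share of members called was below that of all genes. The median log2 difference of the 84 genes, no LIF minus LIF, was 0.12 in WT, 0.03 in R342C, -0.14 in K365T and -0.13 in Q418R, beside medians of all genes between -0.02 and 0.00. Outside Rpl10l, Rpl39l and Rpl3l, differences in the WT line lay between -0.65 and 0.60, and 77 of these 81 genes stayed within 0.5 of 0 in all 4 lines.

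Same-numbered libraries of a line deviated together across the media (correlations of 0.27 to 0.30 in the 4 lines). The labels state no pairing, and same-numbered libraries of 2 different lines, R342C and K365T without LIF, correlated at 0.45. A replicate block within line, added after the data were seen, raised the counts. With it WT had 15 higher and 6 lower members, R342C 5 and 7, K365T 1 and 22, and Q418R 1 and 18, where 56.3%, 54%, 52.1% and 54% of all genes were called. No member lost its call with the block, 36 calls were gained, and in each line the share of members called was again below that of all genes. Without the block, single libraries moved the counts. WT had 2 higher and 4 lower without LIF replicate 2 and 3 higher and 4 lower without no LIF replicate 2, and 3 higher and 5 lower in a fit of its own 4 libraries, so that lower calls outnumbered higher ones in each of these settings. R342C had 0 higher and 4 lower without LIF replicate 2 and 1 higher and 3 lower without no LIF replicate 2. K365T had 4 calls without LIF replicate 1, 19 without no LIF replicate 1 and 3 without no LIF replicate 2, and Q418R had 5 without replicate 2 of either medium. The median of the 84 genes moved as well, from 0.01 (without no LIF replicate 2) to 0.20 (without no LIF replicate 1) in WT, from -0.07 (without LIF replicate 2) to 0.12 (without LIF replicate 1) in R342C, and from -0.26 (without no LIF replicate 1) to -0.03 (without LIF replicate 1) in K365T.

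In bulk RNA, fewer cells of a type and less RNA per cell cannot be told apart. Of 8 neuroectoderm markers 6 rose in WT with this change of medium, where 23.8% of all genes rose. With the replicate block 6 rose and 2 fell. Their sum went from 2193 to 3232 normalised counts over the 8 LIF libraries to 4497 to 6450 over the other 8, with none at 0 in all libraries. Of 8 markers of extraembryonic endoderm 7 were tested, 4 rose and 2 fell in WT, and their sum went from 485 to 739 up to 1200 to 1769. Of 10 fibroblast markers 7 were tested, 3 rose and 3 fell, and their sum went from 3869 to 6324 down to 2059 to 2782, with no marker of either list at 0 in all libraries. With the replicate block, 3 trophectoderm markers rose and 4 fell in WT of 7 tested, and 3 mesoderm markers rose and 3 fell of 7 tested. The part of these markers in the result was not tested.

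Without the replicate block, 3 of the 84 genes, Rpl10l, Rpl39l and Rpl3l, fell in all 4 lines, and none of the 84 rose in all 4 (Rpl13a did with the block). Rpl10l had 448 and 379 TPM in the WT libraries with LIF and 114 and 65.4 without it. In R342C its values were 481 and 497 TPM with LIF and 98.5 and 82.6 without. K365T had 329 and 391 TPM with LIF and 48.9 and 48.3 without, and Q418R had 311 and 380 with and 75.8 and 62.9 without. All 8 LIF libraries lay above all 8 libraries without LIF. On the log2 scale of normalised counts the difference was -2.28 (WT), -2.49 (R342C), -2.94 (K365T) and -2.46 (Q418R), each ± 0.17 (SE), with adjusted p (limma) of 9.69e-08, 4.43e-08, 1.19e-08 and 5.13e-08.

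In LIF medium this paralog was not rare. Its TPM was 56.8% ± 4.1 (SD, n = 2) of that of Rpl10 in WT, 63.5% ± 5.6 in R342C, 49.3% ± 6.4 in K365T and 40.8% ± 5.9 in Q418R. Without LIF the ratio was 9.61% ± 3.15 in WT, 9.21% ± 1.04 in R342C, 6.39% ± 0.74 in K365T and 6.92% ± 0.66 in Q418R. These ratios share the uncertainty of Rpl10, whose reads may be divided with its pseudogenes. Rpl10 itself had 750 and 703 TPM in WT with LIF and 966 and 885 without, and its normalised count rose by 0.32 ± 0.10 in WT (adjusted p = 0.0183, limma) and 0.29 ± 0.10 in R342C (adjusted p = 0.0309), whereas K365T (log2 difference -0.00) and Q418R (0.09) did not pass the test. The call in WT was lost without either LIF library (adjusted p = 0.0542 and 0.0939), without no LIF replicate 2 (0.135) and in a fit of the 4 libraries (0.0898), and that in R342C without LIF replicate 2 (0.216) or either library without LIF (0.0782 and 0.121, limma).

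Rpl39l had 109 and 144 TPM in WT with LIF and 26.0 and 33.0 without. The values were 108 and 60.02 with and 28.4 and 17.2 without LIF in R342C. In K365T they were 144 and 155 with and 22.0 and 18.7 without. Q418R had the highest values in either medium, 193 and 181 TPM with LIF and 74.0 and 50.7 without, and its lower library with LIF was above every library of the other lines; no contrast of Rpl39l between a mutant line and WT passed the test. On the log2 scale the difference without LIF was -2.11 (WT), -1.89 (R342C), -2.91 (K365T) and -1.75 (Q418R), each ± 0.31 (SE), with a highest adjusted p of 0.000303 (limma). Within each line the 2 media did not overlap.

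Its partner Rpl39 had 878 and 815 TPM in WT with LIF and 822 and 725 without, and passed the test in K365T, where 740 and 665 TPM with LIF stood against 533 and 494 without (log2 difference -0.52 ± 0.13, adjusted p = 0.00568, limma; 0.0721 without LIF replicate 1 and 0.0714 without no LIF replicate 2). With the replicate block it also passed in Q418R (-0.32, adjusted p = 0.0132, against 0.0662 without the block). As a share of Rpl39, Rpl39l went from 15.0% ± 3.7 (SD, n = 2) to 3.86% ± 0.98 in WT and from 21.4% ± 2.6 to 3.95% ± 0.23 in K365T. The share went from 9.97% ± 3.16 to 3.00% ± 0.74 in R342C and from 24.2% ± 1.5 to 8.96% ± 1.44 in Q418R.

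Rpl3l was near the lower end of detection, with 8 to 82 reads per library. It had 4.6 and 3.6 TPM in WT with LIF and 1.7 in both libraries without. Its log2 difference was -1.17 ± 0.36 in WT (adjusted p = 0.0145), -1.48 ± 0.36 in R342C (0.00354), -1.35 ± 0.36 in K365T (0.00693) and -1.91 ± 0.36 in Q418R (0.00053, limma), and adding 4 before the logarithm compresses these values. Leaving out 1 library ended the call in WT (adjusted p = 0.0924 when LIF replicate 1 was omitted and 0.0755 when no LIF replicate 1 was omitted), in R342C (0.0617, no LIF replicate 2 omitted) and in K365T (0.0642, LIF replicate 1 omitted). The calls of Rpl10l and Rpl39l held in all 15 alternatives in each line. Rpl3, the general partner, passed the test in no line, with log2 differences from -0.03 to 0.18.

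**Figure D2:**
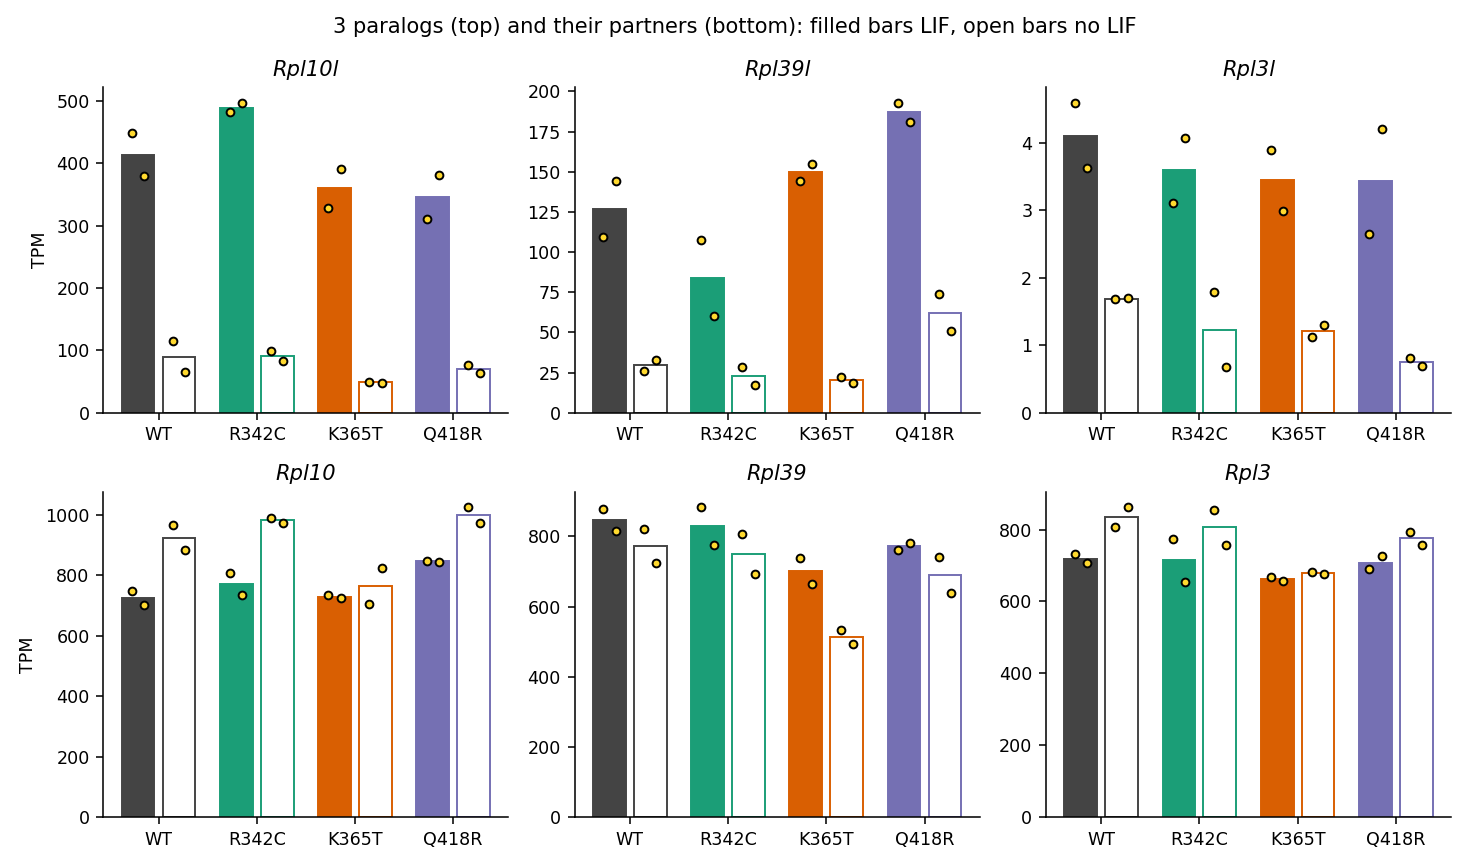
TPM of Rpl10l, Rpl39l and Rpl3l (top row) and of their partners Rpl10, Rpl39 and Rpl3 (bottom row) in the 4 lines, with filled bars for LIF, open bars for no LIF (means of 2 libraries) and points for single libraries. All 3 paralogs are lower without LIF in each line, while the partners stay between 494 and 1025 TPM.

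Another pair includes a gene annotated as a pseudogene. Rps4l, annotated as a transcribed processed pseudogene at chr6:148354656-148355598, had a mean of 780 TPM and shares no 150-base window with another gene, though it overlaps Tmtc1. It fell in WT, from 1023 and 805 to 838 and 419 TPM (log2 difference in normalised counts -0.65 ± 0.22, adjusted p = 0.0224, limma; on TPM the libraries overlap), and had differences of -0.48 to -0.54 that missed the threshold in the mutant lines. The call in WT was lost without LIF replicate 1 (-0.50, adjusted p = 0.162), without no LIF replicate 2 (-0.29, 0.305) and on TPM (0.0942). With the replicate block Rps4l passed in the mutant lines as well (adjusted p = 0.00588 in R342C, 0.00313 in K365T and 0.00317 in Q418R, limma). Its X-linked partner Rps4x fell in K365T by 0.45 and in Q418R by 0.33 (adjusted p = 0.0066 and 0.0335, limma), calls that were lost without no LIF replicate 2 in K365T and without either LIF library or no LIF replicate 2 in Q418R. Rps27l, known as a p53 target, and Rps27 passed in no line.

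Beyond the paralogs, the changes without LIF were small and differed in direction. Rpl13a, a large subunit protein known also for silencing inflammatory mRNAs, had 126 and 106 TPM in WT with LIF and 186 and 174 without, with no overlap between the media. Its normalised count rose by 0.60 ± 0.14 in WT, 0.53 ± 0.14 in R342C and 0.42 ± 0.14 in Q418R (adjusted p = 0.00216, 0.00522 and 0.0219, limma), and its difference in K365T was 0.35 ± 0.14 (adjusted p = 0.051, and 0.0332 with the replicate block). Rps12, of the small subunit, rose by 0.40 in WT and 0.34 in R342C. Rpl35 rose by 0.35 in WT alone among the calls, and Rpl7a rose in WT (0.34) and R342C (0.29). The call of Rpl13a in WT held in all 15 alternatives. The other calls were lost without single libraries: Rpl13a in R342C without LIF replicate 2 and in Q418R without LIF replicate 2 or no LIF replicate 1, and Rpl35 without LIF replicate 2. Rps12 and Rpl7a lost theirs in WT without replicate 2 of either medium, and in R342C Rps12 without either LIF library or no LIF replicate 2, and Rpl7a without any 1 library.

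Rps29 moved the other way. It had 3919 and 3610 TPM in WT with LIF and 2987 and 2649 without, a log2 difference in normalised counts of -0.45 ± 0.18 that missed the threshold (adjusted p = 0.0559, limma) and passed it with the replicate block (0.00204). It fell by 0.68 (R342C), 0.48 (K365T) and 0.59 (Q418R) (adjusted p = 0.00704, 0.0457 and 0.0168), and in K365T the libraries of both media overlapped on normalised counts but not on TPM. Rpl12 of the stalk base fell in K365T (-0.34) and Q418R (-0.42), as did Rps24, mutated in some forms of Diamond-Blackfan anemia (-0.34 and -0.41). Rpl37a fell in K365T (-0.33), and Rplp1 fell in Q418R (-0.39 ± 0.12, adjusted p = 0.0193). The calls of Rps29 were lost without LIF replicate 1 or no LIF replicate 2 of the same line, as was that of Rplp1. Rpl12, Rps24 and Rpl37a lost theirs in K365T without either LIF library or no LIF replicate 2, and in Q418R Rpl12 without replicate 2 of either medium and Rps24 without LIF replicate 2 or no LIF replicate 1. Over the 4 lines 65 of the 84 genes were called in no line (42 with the replicate block). None of the 84 was called higher in one line and lower in another. The matching counts over all tested genes were not made, so only the shares per line given above can be compared.

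**Figure D3:**
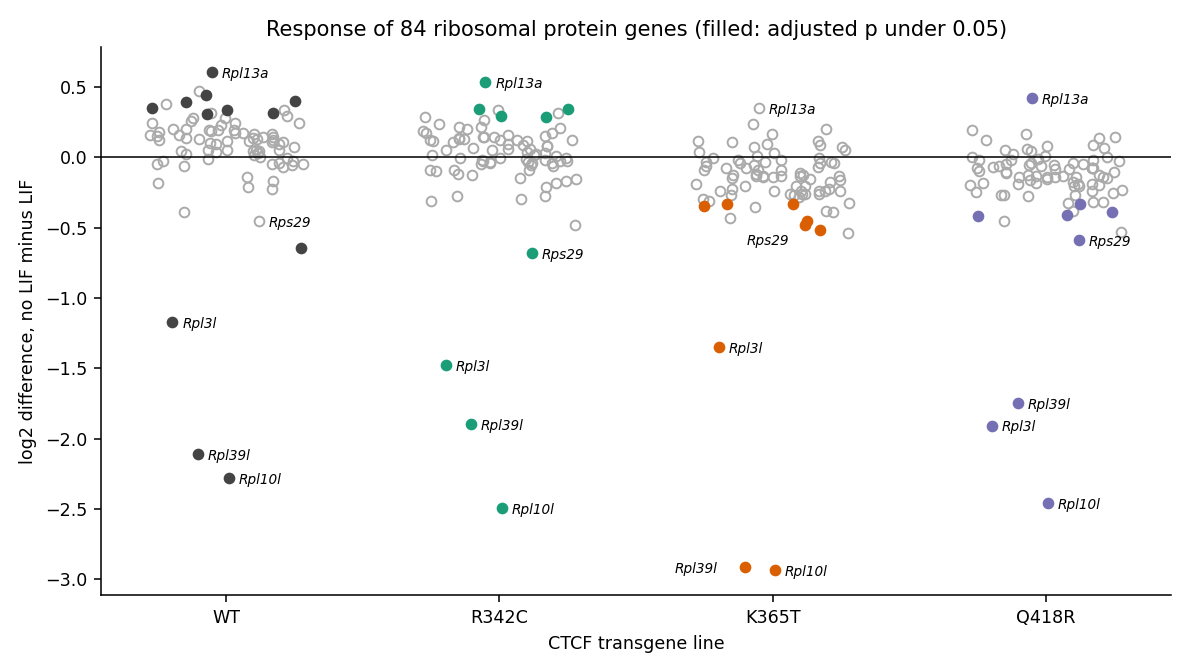
Log2 difference of normalised counts, no LIF minus LIF, for each of the 84 genes (points) in the 4 lines, with filled points at an adjusted p under 0.05. Nearly all genes lie close to 0, and Rpl10l, Rpl39l and Rpl3l lie at -1.17 or below in each line.

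Each mutant line was compared with WT in both media. These comparisons share the WT libraries. R342C had 0 of 84 genes called in LIF (limma; 3 at an unadjusted p under 0.05) and 0 without LIF (15), where 0.417% and 0.479% of all genes were called; edgeR and DESeq2 also called 0. Q418R had 0 in LIF (4 at an unadjusted p under 0.05, and 0 with edgeR or DESeq2, background 4.25%). Without LIF, Q418R had 1 lower gene among the 84 (background 6.15%, 3.13% lower): Rpl32, a large subunit protein, with 11937 and 10915 normalised counts in Q418R against 15329 and 19847 in WT, a log2 difference of -0.61 ± 0.15 (adjusted p = 0.0262, limma). That call was lost on TPM, with no filter on low values, in a fit of only the 4 libraries, without either Q418R library and without WT replicate 2 (-0.43, adjusted p = 0.264), the library that stood apart; without WT replicate 1 there were 3 calls. The gene lies on chromosome 6, where the median of all 907 tested genes in this comparison was -0.35.

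K365T differed more. In LIF, 5 of 84 genes were called where 11.1% of all genes were (6.42% higher and 4.66% lower): Rps29 (-0.85 ± 0.18, adjusted p = 0.0101, limma), Rplp1 (-0.52 ± 0.12, 0.0164), Rplp0 (-0.50 ± 0.12, 0.0154) and Rpl36a (-0.48 ± 0.13, 0.0309) fell, and Rpl7 rose (0.50 ± 0.10, 0.0065). Rpl7 had 1296 and 1391 TPM in K365T with LIF against 893 and 834 in WT. Leaving out 1 library gave 1 call without WT replicate 1, WT replicate 2 or K365T replicate 2, and 4 without K365T replicate 1. On TPM the split turned to 3 higher and 1 lower, with Rplp0, Rplp1 and Rpl36a not called, and with edgeR it was 3 higher and 4 lower.

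Without LIF, 48 of the 84 genes were lower in K365T than in WT and none was higher, which is 57.1% of the members where 14.7% of all genes were called (7.38% higher and 7.33% lower). The median log2 difference of the 84 genes was -0.44, beside -0.01 for all 17757 genes, and 74 of the 84 values were negative. In 68 genes both K365T libraries lay below both WT libraries, as they did in 25.9% of all genes. The called differences ran from -0.33 to -0.99, with adjusted p from 0.00126 to 0.0496 (limma).

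Both subunits took part. Of 33 small subunit genes 23 were lower, with a median of -0.44, and of 48 large subunit genes outside the stalk 22 were lower, with a median of -0.41. Among all genes 7.33% were lower. All 3 stalk genes were lower: Rplp0, with 969 and 1287 TPM against 1719 and 1358 in WT (log2 difference in normalised counts -0.62 ± 0.12), Rplp1, with 3499 and 3759 against 5121 and 4648 (-0.60 ± 0.12), and Rplp2, with 770 and 654 against 1008 and 764 (-0.48 ± 0.15). On TPM the K365T libraries were below the WT libraries in Rplp0 and Rplp1 and overlapped in Rplp2. The largest fall was that of Rpl10l, from a mean of 754 ± 192 to 371 ± 38.2 normalised counts (SD, n = 2), a log2 difference of -0.99 ± 0.17 (adjusted p = 0.00242, limma), followed by Rps29 (-0.88 ± 0.18) and Rps21 (-0.81 ± 0.19). Rps4x (-0.78 ± 0.12) had the smallest adjusted p, 0.00126, with 12215 and 10857 normalised counts in K365T against 18375 and 21298 in WT.

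Among 15 members with known roles outside bulk protein synthesis or in disease, 11 were lower, beside 48 of all 84 members and 7.33% of all genes. Rps19, the gene most often mutated in Diamond-Blackfan anemia, had 377 and 405 TPM against 487 and 445 in WT (log2 difference in normalised counts -0.42, adjusted p = 0.0188, limma). Rpl11, which with Rpl5 binds Mdm2 when ribosome assembly fails, differed by -0.44 (0.0266), and Rpl5 by -0.24 (0.13, not called). Rps6, the substrate of S6 kinase, was lower by 0.43 on the log2 scale, Rps25, needed by some viral entry sites for initiation, by 0.56, and Rpsa, also a laminin receptor, by 0.44. Rps3, with a role in DNA repair, Rps3a1 and Rpl13a were lower by 0.43, 0.34 and 0.63. Rpl38, known from skeletal patterning, and Rps27a, a fusion of ubiquitin and a ribosomal protein, differed by 0.04 each, and Rpl10a by -0.28, and these did not pass. Of the 21 members with at least 50% of their 150-base windows shared with other genes 12 were lower, and of the 63 others 36. Only 15 of the 84 members share no window, so this split does not separate members with and without shared sequence. The part of shared reads in the result was not tested.

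Position on the chromosomes divided the 84 genes. None of the 10 on chromosomes 1 and 11 was lower, and their median was 0.04, with values from -0.20 to 0.13. Of the 74 on other chromosomes 48 were lower, with a median of -0.46. These 10 are Rpl7, Rpl31 and Rpl37a on chromosome 1 and Rpl19, Rpl23, Rpl23a, Rpl26, Rpl27, Rpl38 and Rps27a on chromosome 11. All 2419 tested genes of chromosomes 1 and 11 had a median difference of 0.40 between K365T and WT without LIF, against -0.06 for the 14961 on the other chromosomes. In both places the median of the ribosomal protein genes lay below that of all genes. In LIF the medians were 0.24 for the 10 genes and -0.21 for the 74, beside 0.39 and -0.06 for all genes there, and Rpl7, the gene that rose, is on chromosome 1. These values were noticed in the data and are given without a test.

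**Figure D4:**
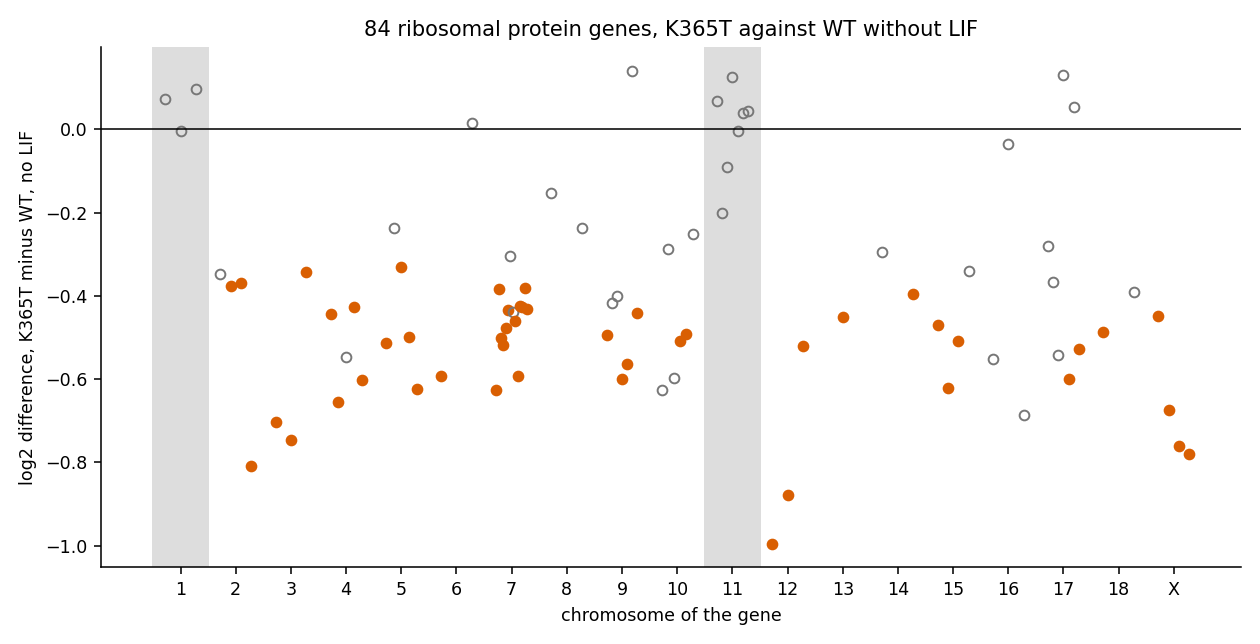
Log2 difference of normalised counts, K365T minus WT without LIF, of the 84 genes by chromosome, with filled points for genes lower at an adjusted p under 0.05 and grey bands for chromosomes 1 and 11. The 10 genes in the bands lie between -0.20 and 0.13, and 48 of the 74 others are called lower.

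The number of lower genes rested on single libraries. It was 5 without WT replicate 2 and 9 without K365T replicate 2, against 45 without WT replicate 1 and 46 without K365T replicate 1. It was 6 on TPM and 0 in a fit of only the 4 libraries concerned, in which limma called none of all 17757 genes either (41 members at an unadjusted p under 0.05); edgeR called 49 and DESeq2 52 in all libraries. The median of the 84 genes was negative in each of these settings, from -0.27 on TPM, where all genes had 0.12, to -0.53. Without WT replicate 2 the medians on chromosomes 1 and 11 and elsewhere were 0.15 and -0.37, and on TPM 0.21 and -0.28.

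As a share of all TPM, the 84 genes held 9.27% and 8.69% in the WT libraries without LIF and 7.77% in both K365T libraries. With LIF the shares were 8.68% and 8.05% in WT and 8.55% and 8.08% in K365T, which overlap. R342C had 8.72% and 7.99% with LIF and 8.78% and 8.57% without, and Q418R 8.72% and 8.94% with and 8.65% and 8.89% without. On TPM, K365T without LIF was thus the lowest group, at 7.77% ± 0.0012 (SD, n = 2) against 8.98% ± 0.42 in WT without LIF. As a share of normalised counts its mean was also the lowest (4.25% ± 0.34). There its libraries (4.49% and 4.01%) overlapped those of K365T and R342C with LIF (down to 4.19% and 4.26%). They lay below those of WT without LIF (5.00% and 5.44%). With 2 libraries against 2 the smallest p of an exact two-sided permutation test is 0.333, so that this test of the sum could not pass, and no other was run.

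**Figure D5:**
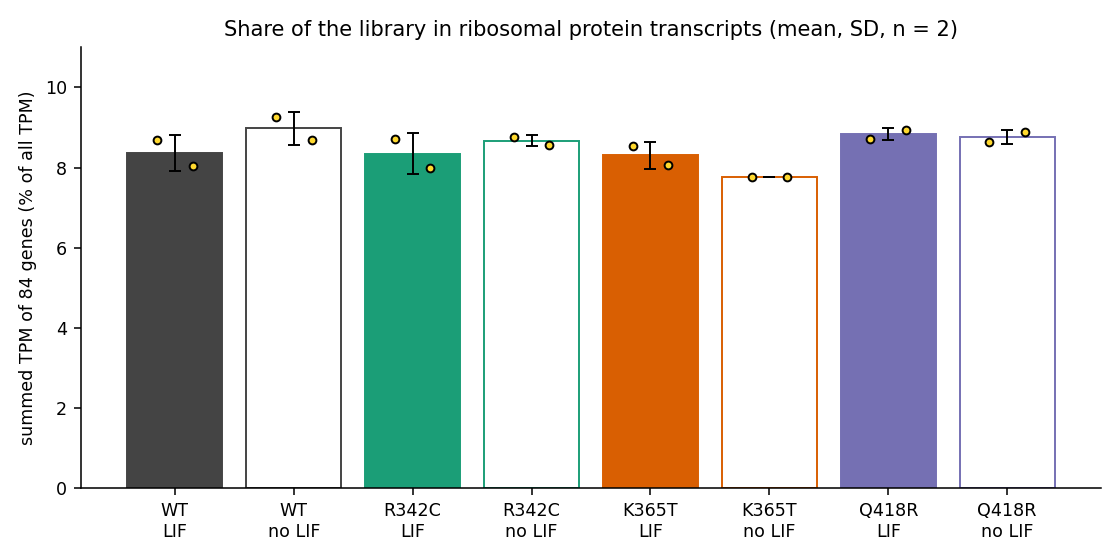
Summed TPM of the 84 genes as a percentage of all TPM in each group: bars show the mean of 2 libraries, error bars the SD and points the libraries. K365T without LIF is the lowest group at 7.77%, and the other groups lie between 8.31% and 8.98%.

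Whether a mutant's response to medium differed from that of WT was tested as an interaction. No member passed in any of the 3 lines (limma), with lowest adjusted p-values of 0.247 in K365T (Rpl7), 0.51 in Q418R (Rpl35) and 1.00 in R342C, while 0.659%, 0.141% and 0% of all genes were called. At an unadjusted p under 0.05 there were 10 members in K365T, 2 in Q418R and 0 in R342C, and edgeR and DESeq2 called 0. The median interaction of the 84 genes was -0.26 in K365T, -0.24 in Q418R and -0.07 in R342C. Without the second WT library without LIF, these medians were -0.15, -0.14 and 0.02, and that of R342C was also positive without its LIF replicate 1 (0.01). The larger number of low genes in K365T without LIF than with LIF is therefore not shown to be a different response.

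Genes that act around the ribosome were counted in the same fits, but their single calls were not followed over the alternatives. Of 32 translation factors, 5 were higher and 2 lower without LIF in WT, which is 21.9% where 48.8% of all genes were called. Eif2s2, a subunit of the factor that brings the initiator tRNA, fell most (-1.75 ± 0.12, adjusted p = 3.48e-08, limma), from 31570 and 27498 to 8545 and 8958 normalised counts. It also fell in R342C (-1.86), K365T (-2.08) and Q418R (-1.96). Tpt1, another mRNA with a pyrimidine start, rose in WT by 0.48. Against WT without LIF, K365T had 5 of the 32 lower and none higher (15.6%, where 14.7% of all genes were called), on chromosomes other than 1 and 11: Eif4a2 (-0.77), Tpt1 (-0.65), Eif2s3x (-0.49), Eif4b (-0.40) and Eif3e.

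Of 42 ribosome biogenesis genes, 11 were higher and 4 lower without LIF in WT, which is 35.7% where 48.8% of all genes were called, and with the replicate block 16 were higher and 7 lower. Without the block the counts were 15 and 3 (R342C), 5 and 5 (K365T), and 4 and 7 (Q418R). Nhp2, a protein of the pseudouridylation complex, rose by 0.79 in WT and 0.83 in R342C. In LIF, 8 of the 42 were higher in K365T than in WT (19%, where 6.42% of all genes were higher). Of the 10 on chromosomes 1 and 11, 7 were higher, and 1 was higher elsewhere. Ftsj3 (0.89), Wdr12 (0.76), Nhp2 (0.73) and Ncl (0.65) were the largest. Without LIF fewer of the 42 were higher in K365T than in WT: 2 of the 10 on chromosomes 1 and 11 and 2 elsewhere. There 1 was lower, and 7.38% of all genes were higher. The mitochondrial ribosomal protein genes, a separate set encoded in the nucleus, had 3 higher and 16 lower of 77 without LIF in the WT line, which is 24.7% where 48.8% of all genes were called, and 5 higher and 25 lower with the replicate block. K365T had 12 of these 77 higher than WT without LIF (7.38% of all genes were higher) and 1 lower (Mrps2, -0.67). Of the 16 on chromosomes 1 and 11, 10 were higher, and 2 were higher elsewhere. All tested genes of these chromosomes had a raised median in K365T in either medium, as given above. Mrpl23, beside an imprinted region, rose without LIF by 2.70 to 3.02 in the 4 lines.

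Of 5 genes through which p53 and ribosomal proteins act on each other, 4 were higher in K365T than in WT without LIF, where 7.38% of all genes were higher: Cdkn1a, a cell cycle inhibitor and p53 target (1.04 ± 0.15, adjusted p = 0.00103, limma), Trp53 itself (0.86 ± 0.21, 0.0155), Mdm4 (0.84 ± 0.19, 0.0117) and Mdm2 (0.70 ± 0.15, 0.00829). Trp53 is on chromosome 11 and Mdm4 on chromosome 1, and the other 2 are not. Cdkn1a had 2697 and 2734 normalised counts in K365T without LIF against 1197 and 1452 in WT, and its interaction with medium passed the test (1.59 ± 0.22, adjusted p = 0.00964). In LIF it was lower in K365T (-0.55 ± 0.15, adjusted p = 0.0348).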

How the data were processed

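RNA was measured in 16 libraries, 2 for each of 4 lines and 2 media. The submitters' processing notes name Trim Galore, STAR, DESeq2 and the build mm10; versions, the counting tool and its handling of reads with several matches are not given in the sources used here. The authors deposited TPM values and normalised counts (unit signal: reads divided by a size factor of the library). Divided by the value of 1 read (0.779 to 1.19), 100% of values were whole within 0.05, which gave the read counts used for edgeR 4.0.16 and DESeq2 1.42.0 as alternatives.

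Log2(normalised count + 4) was fitted with limma 3.58.1 in R 4.3.3 (1 mean for each of 8 groups, 8 residual degrees of freedom, trended eBayes) to the 17757 genes with a mean of at least 10, adjusted by Benjamini-Hochberg over them at 0.05. The 13 contrasts were the media in each line, each mutant against WT in each medium, and the interactions. Fold values are differences on this log2 scale and are compressed for low counts. The script was tested on simulated data.

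The members, gene lists and tests were chosen with earlier results of these data known. Named were the stalk genes, the listed paralogs and members with known roles, the 5 largest rises and falls among the calls of each contrast of media, the 3 largest of each other contrast, the 3 highest and lowest by TPM, and up to 4 called genes of each other list. Some genes that this rule names are not reported here. Rps24, Rpl37a, Rpl24, Rps10, Eif3e, Mrps2, the printed promoters and the chromosome comparison were chosen after their values were seen. Alternatives were other scalings, filters and tools, TPM, a replicate block over all lines and, added after the data were seen, within line, fits of single contrasts and leaving out each library. For the block within line only, replicate numbers were taken as pairing the libraries of a line across media, since their deviations correlated over 0.1 in all 4 lines. The main fit held no such pairing, and the labels do not state one. Positions and transcripts came from GENCODE M21.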

Additional observations from a re-analysis of the deposited data

How the results depend on the processing

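No call of a named gene changed direction under any alternative run, and of the pairs of gene and alternative 995 kept their side of the threshold and the others lost it. Between lines the replicate numbers share only a number (correlations of deviations from -0.39 to 0.45 over 28 pairs of groups, 13 above 0.1). A replicate block over all lines gave 49 members in K365T against WT without LIF and 4 in Q418R against WT without LIF, and a replicate block within line gave 21 in WT, 23 in K365T and 19 in Q418R for the media. On TPM there were 4 members for the media in Q418R, 6 in K365T against WT without LIF and 0 in Q418R against WT without LIF. With no filter on low values the latter 2 comparisons had 31 and 0, upper-quartile scaling gave 31 in the former, and fits of only their own groups gave 0 and 0. K365T against WT with LIF had 9 with DESeq2 and 3 in a fit of its own groups, and Q418R against WT without LIF had 4 with DESeq2. The cause was not tested. Leaving out 1 library gave 6 to 13 members for the media in WT, 4 to 8 in R342C, 3 to 19 in K365T and 5 to 10 in Q418R. Against WT it gave 1 to 4 in K365T with LIF, 5 to 46 in K365T without LIF and 0 to 3 in Q418R without LIF, and 0 in the other comparisons and interactions.

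TPM moved the median of all genes by over 0.1 on the log2 scale in 7 comparisons, to 0.14, 0.12 and 0.16 in R342C, K365T and Q418R against WT without LIF, 0.11 and 0.09 in R342C and K365T against WT with LIF, and 0.11 for the media and for the interaction in Q418R. The members' median then changed sign in R342C against WT with LIF (0.01) and for the media in Q418R (0.02), and without LIF replicate 2 it did so for the media in R342C (-0.07), and without WT no LIF replicate 2 or R342C LIF replicate 1 for the interaction in R342C (0.02 and 0.01). Upper-quartile scaling gave 14 higher and 4 lower members for the media in WT. With 2 libraries a group, Rpl32l at 6 to 23 reads per library and Rpl3l at 8 to 82 are limited by depth.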

Other observations

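Of 19 genes of the mTOR pathway and translation control, 3 were higher and 4 lower without LIF in WT, which is 36.8% where 48.8% of all tested genes were called. Among them were Tsc1, an inhibitor of mTORC1, at 1.32 ± 0.25 (SE, log2) and Rps6kb1, the kinase of Rps6, at 1.11 ± 0.16, while Eef2k, which inhibits elongation, fell by 1.28 and Deptor by 0.95. Of 13 chaperones and importers of ribosomal proteins, 3 were higher and 1 lower (30.8%), Tnpo1 falling by 1.01 and Ipo5 rising by 0.61. Of 15 RNA polymerase I genes 1 was higher and 5 were lower (40%), and of 10 genes of the MYC network 4 were higher and 0 lower (40%). Of 17 snoRNA host genes 2 were higher and 2 lower (23.5%; 2 and 5 with the replicate block within line). Each of these shares lies below that of all genes.

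Among ribosomal genes outside the symbol rule, Rpl7l1, a paralog of Rpl7, fell without LIF by 0.74 in WT, 0.46 in R342C, 0.64 in K365T and 0.73 in Q418R. Rack1, a scaffold on the small subunit, fell by 0.27 in K365T and 0.28 in Q418R. Cdkn2a had an interaction of -2.26 ± 0.44 between K365T and medium (adjusted p = 0.0332, limma). With LIF its level was higher in K365T than in WT (1.62 ± 0.31, adjusted p = 0.00511, limma), and without LIF this contrast was not called.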
